A study of Sus scrofa with 8 samples.

Results

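Transcripts of 9 complement genes were measured in right ventricular heart tissue of pigs: the proteases C1R, C1S, C2 and CFB, the components C3 and C7, and the regulators SERPING1, CFI and CD46. They were taken by gene name from a table of 30550 genes, and each of the 9 names matched 1 gene. The study compared 4 libraries from pigs with a heterozygous knockout of PKP2 (PKP2_het) with 4 libraries from wild-type pigs (WT). PKP2 encodes plakophilin 2, which anchors the desmosomes between heart muscle cells, and the knockout pigs are presented as a model of arrhythmogenic cardiomyopathy. The labels give no age, sex, breed, litter or number of animals, so the spread behind each p-value is that between libraries and may be technical. The cell type is labelled as cardiomyocytes, but the protocol starts from ventricular tissue, and markers of fibroblasts, endothelium and macrophages were present.

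Complement is a cascade of blood and tissue proteins that tags and destroys microbes and clears damaged cells. In the classical branch the recognition protein C1q activates the protease C1r, which activates C1s, and C1s cuts C4 and C2. C2 and its relative factor B supply the protease part of the enzymes that split C3, the component on which all branches converge, and C7 belongs to the pore-forming end of the cascade. The C1 inhibitor (SERPING1) blocks C1r and C1s, whereas factor I (CFI) and its membrane cofactor CD46 break down deposited C3b and C4b. The liver makes most complement proteins of the plasma, while fibroblasts and macrophages of many tissues also make some of them.

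Libraries held 23637697 to 31313628 fragments assigned to genes. Values are FPKM, fragments per kilobase of gene length on a scale set per library by the authors, so levels can be compared between genes. PKP2 itself lay at 24.6 to 45.9 FPKM in PKP2_het against 52.9 to 72.8 FPKM in WT, and the groups did not overlap (limma adjusted p = 0.164). PKP2_het replicate 3 stood apart across all tested genes. Its first principal component score was 47.8, while the other 7 libraries had scores of -16.5 to 3.74, on a component that held 41.6% of the variance. Log2 fold changes of C1R, C1S, C3, C7, SERPING1 and CD46 are therefore also given without it.

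C1R, C1S, C3, C7, SERPING1 and CD46 lay at 4.92 to 72.5 FPKM over all libraries, whereas C2, CFB and CFI lay at 0.188 to 1.07 FPKM. SERPING1 was the highest, with 29.7% to 38.8% of the summed FPKM of the 9 genes in each library. C1R took 16.1% to 19.2% and C1S 11.3% to 17.3%, and C7 had the widest share, from 4.87% to 20.1%. The summed level of the 9 genes was 188, 216, 110 and 104 FPKM in PKP2_het replicates 1 to 4. In WT replicates 1 to 4 it was 92.8, 101, 147 and 131 FPKM. PKP2_het replicates 1 and 2 were above every WT library, and PKP2_het replicates 3 and 4 lay within the WT range.

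**Figure D1:**
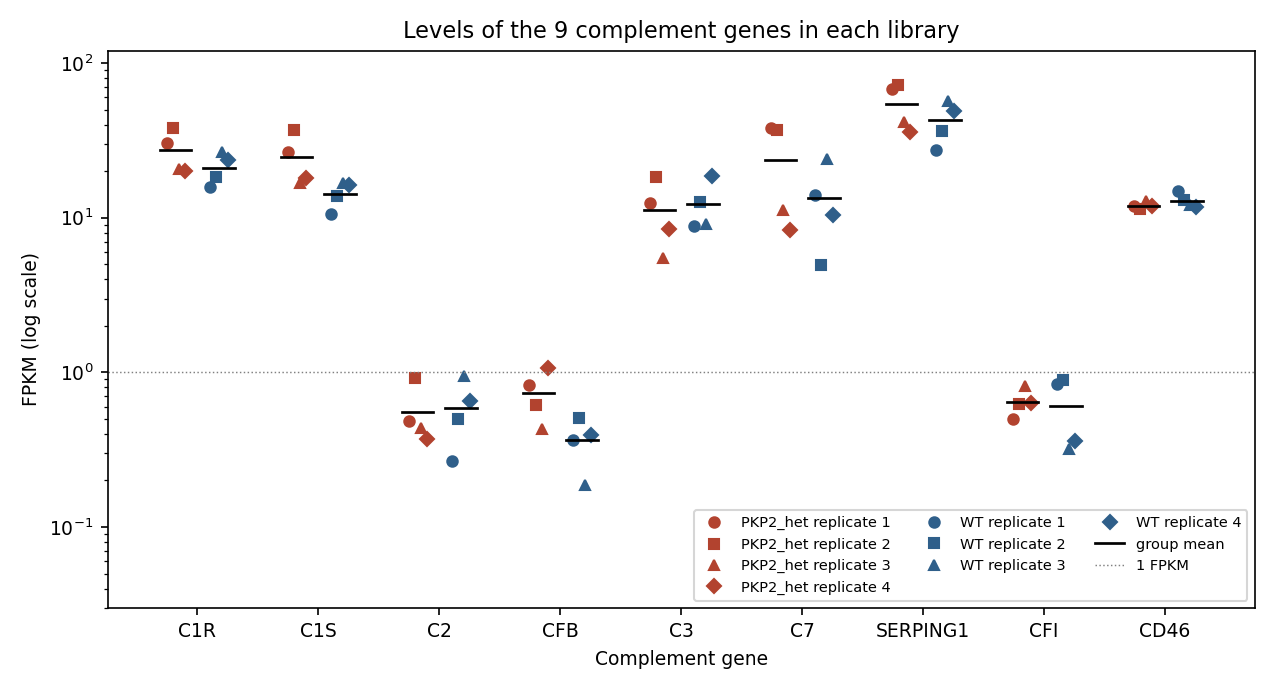
FPKM on a log axis of the 9 complement genes in each of the 4 PKP2_het and 4 WT libraries, with symbols for replicate numbers and black bars for group means. C1S is the gene among the 6 higher ones in which the groups separate, while C2, CFB and CFI lie around or below the dotted line at 1 FPKM.

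C1R and C1S encode the paired proteases of the first complement complex and lie side by side on chromosome 5 of Sscrofa11.1. C1R spans 63644097 to 63655149 on the forward strand and C1S spans 63670309 to 63681466 on the reverse strand, 15.2 kb apart. PKP2 lies on the same chromosome, 22.1 Mb before C1R. C1S was measured at 26.4, 37.1, 16.7 and 18.0 FPKM in PKP2_het replicates 1 to 4 and at 10.5, 13.7, 16.7 and 16.2 FPKM in WT replicates 1 to 4. Every PKP2_het library was above every WT library, but the gap between PKP2_het replicate 3 (16.71 FPKM) and WT replicate 3 (16.66 FPKM) was small. PKP2_het had a mean of 24.6 ± 9.42 FPKM and WT one of 14.3 ± 2.83 FPKM (SD, n = 4 each), a 1.72-fold difference. C1S was 1 of 6 tested genes of the set whose groups did not overlap. Among all tested genes 9.19% had groups that did not overlap, 4.86% with PKP2_het above WT and 4.33% with PKP2_het below.

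The C1S difference did not pass the test across all genes. Its log2 fold change (PKP2_het minus WT, of FPKM + 1) was 0.69, with a 95% interval of 0.14 to 1.25, an unadjusted limma p of 0.0192 and an adjusted p of 0.259. An exact permutation test (two-sided, 70 relabellings) gave p = 0.0286, which is the lower limit of that test with 4 libraries a group. Without PKP2_het replicate 3 the C1S log2 fold change was 0.85 (limma adjusted p = 0.107). C1R was at 30.3, 37.8, 20.7 and 20.1 FPKM in PKP2_het replicates 1 to 4 and at 15.7, 18.4, 26.7 and 23.6 FPKM in WT replicates 1 to 4. For C1R the groups overlapped, since WT replicates 3 and 4 exceeded PKP2_het replicates 3 and 4. The C1R log2 fold change was 0.33, with an interval of -0.18 to 0.85 and a limma adjusted p of 0.593 (exact permutation p = 0.314). When libraries were rescaled to equal FPKM sums, the median of all genes moved from -0.022 to -0.25 and C1S to 0.45, and the C1S groups then overlapped. The deposited sums ran from 472019 FPKM in PKP2_het replicate 2 to 1057305 FPKM in PKP2_het replicate 3.

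The ratio of C1R to C1S in FPKM was 1.15, 1.02, 1.24 and 1.11 in PKP2_het replicates 1 to 4 and 1.497, 1.34, 1.60 and 1.45 in WT replicates 1 to 4. The highest PKP2_het ratio lay below the lowest WT ratio, with means of 1.13 ± 0.0903 (SD, n = 4) and 1.47 ± 0.109. A ratio within a library does not depend on how libraries are scaled. In log2 units the ratio was lower in PKP2_het by a difference of -0.38, and by -0.43 to -0.34 when any 1 library was left out. Of all other tested genes, 31.1% had a ratio to C1S that was lower in every PKP2_het library than in every WT library, so C1R shares this with many genes. Set against C1R, 3.37% of genes separated the groups in either direction. For 0.614% the ratio was higher in every PKP2_het library, the direction of C1S, and for 2.75% it was lower. No test was run on the ratio, and a ratio shows unequal levels, not which of the 2 genes changed.

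C1R supplied 45.7% to 50.5% of the fragments of the pair in PKP2_het and 52.5% to 56.9% in WT. These shares rested on 841 to 2738 fragments of C1R and 681 to 3259 of C1S per library. The closest libraries were PKP2_het replicate 3, at 50.5% with a 95% Wilson interval of 48.5% to 52.5%, and WT replicate 2, at 52.5% with an interval of 50.6% to 54.4%. These 2 intervals overlap, and they cover counting error only. The labels state no strand setting for the counting, but C1R and C1S share no base.

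SERPING1 encodes the inhibitor that binds C1r and C1s, and lies on chromosome 2 from 13324160 to 13338826. Its level was 67.5, 72.5, 41.3 and 35.6 FPKM in PKP2_het replicates 1 to 4 and 27.5, 36.5, 57.1 and 48.9 FPKM in WT replicates 1 to 4. The groups overlapped widely, and the log2 fold change was 0.33 with an interval of -0.30 to 0.97 and a limma adjusted p of 0.668. Relative to C1R, SERPING1 stood at nearly the same mean in both groups, 1.98 ± 0.190 in PKP2_het and 1.99 ± 0.169 in WT (SD, n = 4). Relative to C1S it stood at 1.95 to 2.56 in PKP2_het and 2.63 to 3.43 in WT, without overlap. This too is to be read beside the 31.1% of genes that lay lower relative to C1S, and it was not tested. Over 20 alternatives the log2 fold change ran from 0.079 to 0.69 for C1R and from 0.069 to 0.76 for SERPING1.

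**Figure D2:**
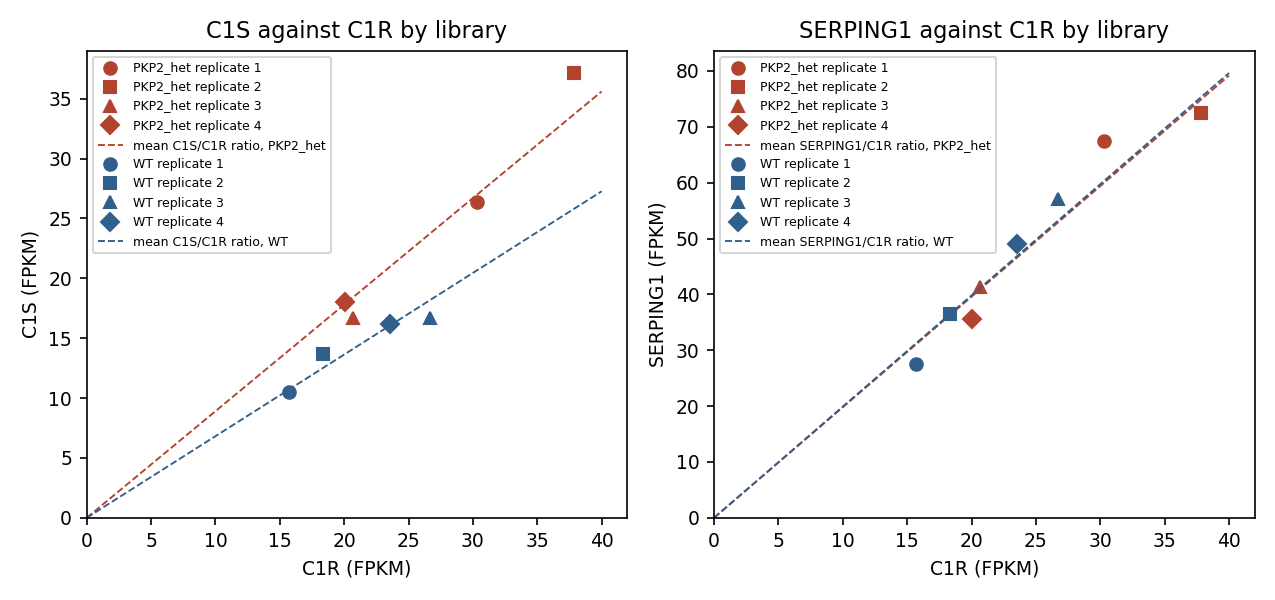
FPKM of C1S (left) and SERPING1 (right) against C1R in each library, with dashed lines for each group's mean ratio to C1R. The PKP2_het points lie above the WT points for C1S at a given C1R level, whereas the 2 lines coincide for SERPING1, at 1.98 and 1.99.

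C2 and CFB encode related proteases, of the classical and the alternative branch, and lie next to each other on chromosome 7. C2 spans 24020590 to 24034042 and CFB 24034077 to 24040523 on the same strand, with 34 bases between them. C2 was at 0.482, 0.923, 0.439 and 0.371 FPKM in PKP2_het replicates 1 to 4 and at 0.267, 0.496, 0.949 and 0.648 FPKM in WT replicates 1 to 4, and the groups overlapped fully. CFB was at 0.833, 0.618, 0.429 and 1.07 FPKM in PKP2_het against 0.365, 0.510, 0.188 and 0.393 FPKM in WT, in the same order. PKP2_het replicate 3 was the 1 library of its group within the WT range of CFB. Mean CFB was 2.03-fold higher in PKP2_het, on 214 fragments in PKP2_het and 109 in WT.

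Neither gene reached 1 FPKM in at least 4 libraries, so both stayed outside the main test. With no such filter, voom on the fragments recovered from the FPKM values gave CFB a log2 fold change of 1.04 (adjusted p = 0.302) and C2 one of -0.089 (adjusted p = 0.947). The exact permutation p was 0.0571 for CFB and 0.857 for C2. Fragments of C2 and CFB could be misassigned where the genes meet, and whether this happened was not tested. C4A, whose protein C1s cuts together with C2, was also low, at 0.943 ± 0.380 FPKM in PKP2_het against 0.744 ± 0.508 FPKM in WT (SD, n = 4).

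C3 encodes the central component and lies on chromosome 2 from 72431470 to 72471622. It was at 12.4, 18.2, 5.49 and 8.44 FPKM in PKP2_het replicates 1 to 4 and at 8.79, 12.6, 9.11 and 18.5 FPKM in WT replicates 1 to 4. The groups overlapped, and the log2 fold change was -0.19 with an interval of -0.93 to 0.56 and a limma adjusted p of 0.833. Without PKP2_het replicate 3, its lowest library, the log2 fold change was 0.077, and without WT replicate 4, its highest, it was 0.020.

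C7 encodes a component of the membrane attack complex and lies on chromosome 16 from 25846860 to 25902707. It varied most of the 6 higher genes, by 7.70-fold between the lowest and the highest library. C7 was at 37.9, 36.8, 11.1 and 8.33 FPKM in PKP2_het replicates 1 to 4 and at 14.0, 4.92, 24.1 and 10.4 FPKM in WT replicates 1 to 4. PKP2_het replicates 1 and 2 were the 2 highest libraries, while the other PKP2_het libraries lay inside the WT range. The coefficient of variation was 68.0% in PKP2_het and 60.5% in WT. The log2 fold change of 0.68 had an interval of -0.56 to 1.92 and a limma adjusted p of 0.652, so the data fix neither its sign nor its size. It was 0.31 without WT replicate 2 and 1.60 without PKP2_het replicates 3 and 4.

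CD46 encodes the membrane cofactor for factor I and lies on chromosome 9 from 135025439 to 135078910. CD46 had the smallest range of the 9 genes, 1.29-fold between its lowest and highest library, at 11.9, 11.4, 12.7 and 11.9 FPKM in PKP2_het replicates 1 to 4 and 14.8, 13.01, 12.1 and 11.7 FPKM in WT replicates 1 to 4. Its coefficient of variation was 4.58% in PKP2_het and 10.6% in WT. The log2 fold change was -0.094 with an interval of -0.33 to 0.14 and a limma adjusted p of 0.733. Its interval was the narrowest of the 6 tested genes.

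CFI encodes factor I itself, the protease that works with cofactors such as CD46, and lies on chromosome 8 from 112430824 to 112470844. It stayed below 1 FPKM in all 8 libraries, at 0.497, 0.626, 0.819 and 0.638 FPKM in PKP2_het against 0.845, 0.894, 0.319 and 0.357 FPKM in WT. WT replicates 1 and 2 held the highest CFI levels and WT replicates 3 and 4 the lowest. With no filter, the voom log2 fold change was 0.26 (adjusted p = 0.789).

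In all, 6 of the 9 genes passed the filter of at least 1 FPKM in at least 4 libraries, and 0 of these 6 were called by limma at an adjusted p of 0.05. The background was 1.86% of 10757 tested genes called, 1.15% higher and 0.707% lower in PKP2_het. C1S alone had an unadjusted p under 0.05, as did 12.8% of all tested genes. Voom on the recovered fragments also called 0 of the 6. Of the 6 log2 fold changes 4 were positive and 2 negative, with a median of 0.33 against -0.022 for all tested genes. That median was 0.17 without PKP2_het replicate 2, 0.18 without WT replicate 1, 0.074 with equal FPKM sums and 0.72 without PKP2_het replicates 3 and 4. C1S was called higher when libraries were weighted by quality (adjusted p = 0.0411) and when PKP2_het replicates 3 and 4 were left out together (adjusted p = 0.0460), a setting chosen after the data were seen. Over 20 alternatives its adjusted p ranged from 0.0411 to 0.729. Cell type markers differed with C1S in those settings. Without PKP2_het replicates 3 and 4, 12 of 14 fibroblast markers were positive (median 0.36, 7 with an unadjusted limma p under 0.05). All 12 of 12 endothelial markers were then negative (5 with such a p). Of all 10757 tested genes, 1699 had such a p without those replicates, 5272 were negative and 184 were called. With library quality weights 10 of 14 fibroblast markers were positive and 2 were called by limma, 1 of them CFD, itself a complement gene. In that setting 1 endothelial marker was called, and 659 of all 10757 tested genes were. The part of these markers in the C1S calls was not tested.

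**Figure D3:**
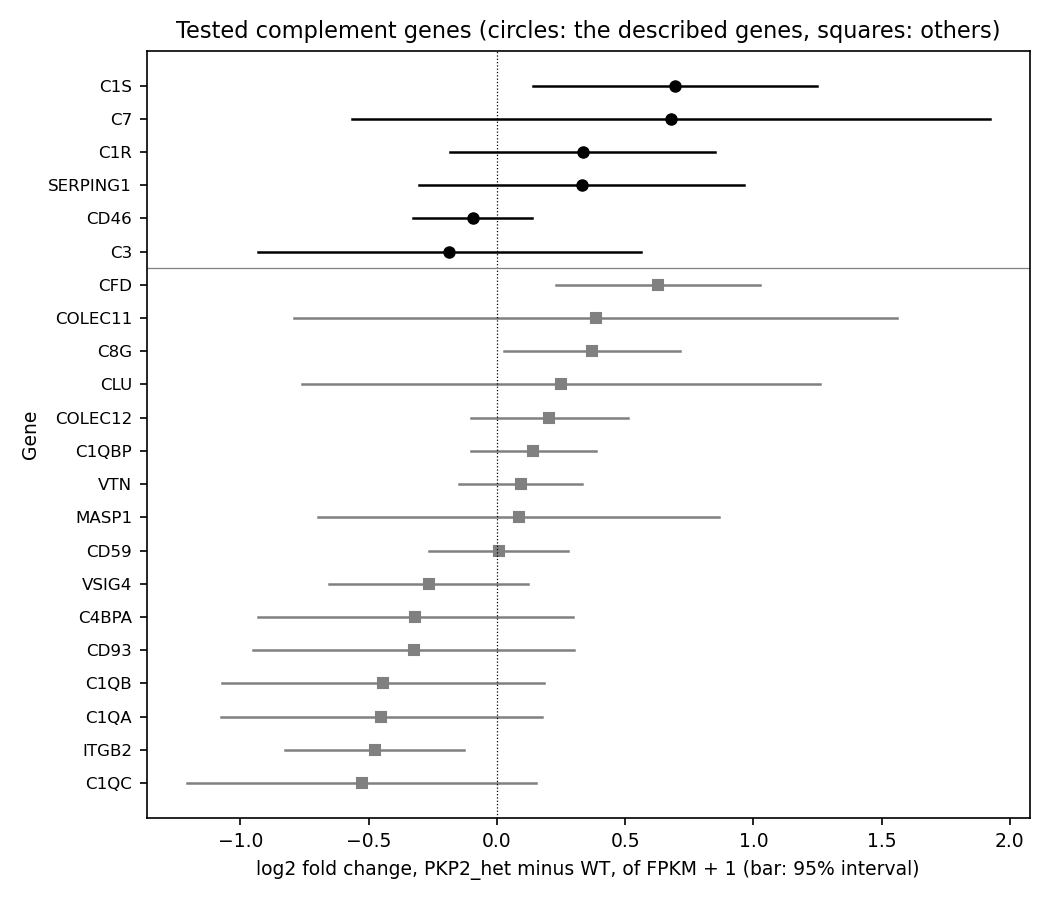
Log2 fold changes (PKP2_het minus WT, of FPKM + 1) with 95% limma intervals for the 6 tested genes of the 9 (circles) and for other tested complement genes (squares). The intervals of C1S, CFD, C8G and ITGB2 leave out 0, and none of these 4 passed after adjustment over all genes.

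Over the libraries, C1R, C1S and SERPING1 had like profiles. Likeness was measured as the Pearson correlation of deviations from the group mean over the 8 libraries, among 10756 other genes, as a description. With so few libraries many genes reach high values. For C1R the closest genes with a symbol were LTBP3 (r = 0.98), EMILIN3 (0.98) and SERPING1 (0.98). For C1S they were HTRA3 (0.97), NXT2 (0.97) and C1R (0.97), and for SERPING1 they were GSN (0.99), PCOLCE2 (0.99) and EMILIN3 (0.98). LTBP3, EMILIN3, HTRA3 and PCOLCE2 encode extracellular matrix or secreted proteins, and GSN encodes gelsolin, an actin-severing protein on the list of fibroblast markers.

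C7, C3 and CD46 had other companions. The closest genes were MATN2, IGSF8 and DACT1 for C7, ZNF783, ARHGEF10L and DMWD for C3, and ZMYM6, MRPL42 and C1H9orf50 for CD46. These correlations ran from 0.95 to 0.98. C7 had a correlation of 0.76 with C1R and C3 one of 0.70, whereas CD46 had one of -0.73.

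The summed level of the 14 fibroblast markers other than CFD, which is itself a complement gene, was also highest in PKP2_het replicate 2. It was 692, 853, 447 and 474 FPKM in PKP2_het replicates 1 to 4 and 462, 559, 701 and 642 FPKM in WT replicates 1 to 4. The fibroblast list as a whole, with CFD, had 7 positive and 7 negative log2 fold changes and 0 limma calls among 14 tested genes, with 3 at an unadjusted p under 0.05. DCN and GSN, its highest genes beside CFD, lay at 88.7 to 256 FPKM and 97.8 to 264 FPKM over the 8 libraries. PCOLCE of this list was at 0 in every library. In bulk tissue, fewer cells of a type and less RNA per cell cannot be told apart.

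Set against these markers, C1S separated the groups more widely. The following ratios were chosen after the data were seen and were not tested. C1S stood at 3.73 to 4.36 FPKM per 100 FPKM of the fibroblast markers in PKP2_het and at 2.27 to 2.52 in WT. C1R stood at 4.23 to 4.62 in PKP2_het and 3.28 to 3.81 in WT, also without overlap. SERPING1 overlapped, at 7.49 to 9.75 and 5.96 to 8.15, and so did C3 and C7. Taken against single markers, the C1S ratio was higher in every PKP2_het library for 9 of 13 genes and overlapped for PDGFRA, MFAP5, TCF21 and FBLN2. The same held for 5 of 13 genes with C1R, 1 with SERPING1, and 0 with C3 or C7. Among all other tested genes 0.773% were higher against at least 9 of the 13 markers, 1.62% against at least 5 and 16.5% against at least 1. Relative to the summed markers 1.303% of those genes were higher in every PKP2_het library. The C1S and C1R ratios share the same denominators and libraries.

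Markers of other cell types followed different patterns. Endothelial markers summed to 270, 328, 552 and 411 FPKM in PKP2_het replicates 1 to 4 and 611, 489, 322 and 430 FPKM in WT replicates 1 to 4. They were highest in WT replicate 1, the library with the lowest C1R, and C1R had a correlation of -0.86 with PECAM1. Macrophage markers ranged from 32.5 to 85.4 FPKM in PKP2_het against 58.0 to 74.6 FPKM in WT, and all 13 tested ones had a negative log2 fold change, with 0 called by limma and 1 at an unadjusted p under 0.05. Only 9 of the 13 were negative without PKP2_het replicate 4 and with library quality weights, and 8 without PKP2_het replicates 3 and 4. Endothelial markers were negative for 11 of 12, with 0 called, and 5846 of all 10757 tested genes were negative. Of these 12 markers, 8 were negative without PKP2_het replicate 1 and 8 without WT replicate 1. All 12 were negative without PKP2_het replicates 3 and 4. Cardiomyocyte markers, led by TNNC1, MYL3 and MYL2, summed to 34003 to 47509 FPKM in PKP2_het against 35001 to 40266 FPKM in WT. The part of cell makeup in the C1R, C1S and SERPING1 levels was not tested. Of 12 liver markers 10 had a mean under 0.5 FPKM, among them FGA, FGG, TTR and SERPINA1, and the exceptions were APOA1 (mean 44.4 FPKM) and ALB (1.33 FPKM).

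**Figure D4:**
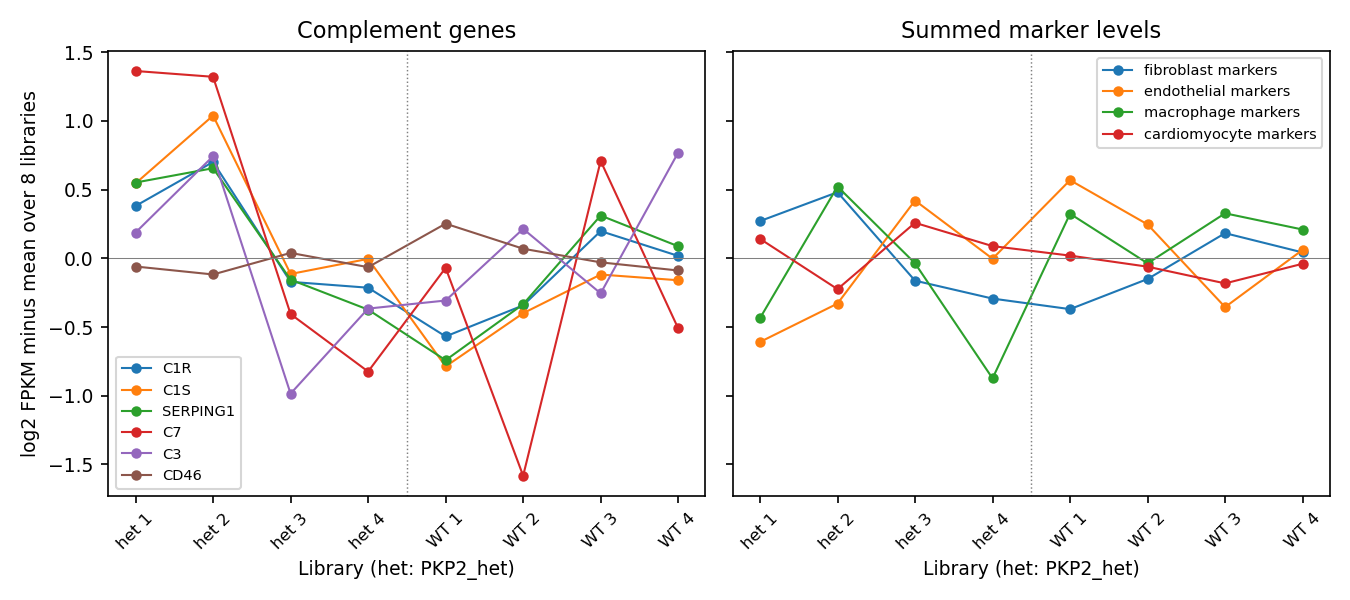
Deviation of log2 FPKM from the mean over the 8 libraries, for 6 complement genes (left) and for the summed FPKM of marker lists (right), with PKP2_het libraries left of the dotted line. C1R, C1S, SERPING1 and the fibroblast markers are high in PKP2_het replicates 1 and 2, CD46 is nearly flat, and C7 has the widest range. The fibroblast sum shown includes CFD. Without CFD, WT replicate 3 (701 FPKM) lies above PKP2_het replicate 1 (692 FPKM).

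The rest of the pathway was examined in a list of 52 further complement genes, of which 45 were in the table and 17 passed the filter. Limma and voom called 0 of the 17, and library quality weights called 1, CFD (adjusted p = 0.0494). The unadjusted limma p was under 0.05 for CFD, C8G and ITGB2. Log2 fold changes were positive for 9 and negative for 8, with a median of 0.0066.

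Recognition proteins were led by the 3 chains of C1q, which binds antibodies and activates C1r. C1QC was at 9.48 ± 5.35 FPKM in PKP2_het against 13.1 ± 2.92 FPKM in WT (SD, n = 4), and C1QB at 8.52 ± 4.45 and 11.2 ± 2.48 FPKM. C1QA had a log2 fold change of -0.45, C1QB one of -0.44 and C1QC one of -0.53, opposite in sign to C1R and C1S, with limma adjusted p-values of 0.554, 0.562 and 0.522. These 3 chains are also on the list of macrophage markers. MBL1 and MBL2, the mannose-binding lectins, had 0 fragments in every library.

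Among the other proteases, CFD (factor D, which cuts factor B) was at 182, 158, 199 and 117 FPKM in PKP2_het replicates 1 to 4 and at 97.9, 93.4, 121 and 104 FPKM in WT replicates 1 to 4. WT replicate 3 exceeded PKP2_het replicate 4, and all other PKP2_het values were above all WT values. The CFD log2 fold change was 0.63, with an interval of 0.23 to 1.03 and a limma adjusted p of 0.146. The mean of CFD was 164 FPKM in PKP2_het, against 0.739 FPKM for its substrate CFB. MASP1, a protease of the lectin branch, was at 2.33 ± 0.566 FPKM in PKP2_het against 2.54 ± 2.30 FPKM in WT (SD, n = 4).

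Most partners of C7 in the pore had few or no fragments. C5 and C9 had means of 0.054 and 0.290 FPKM in PKP2_het, and C6 and C8B had at most 3 and 1 fragments in any library. C8A had 0 fragments in all 8 libraries, which with a floor of 3 fragments per library allows up to 0.0420 to 0.0622 FPKM. C8G, the gamma chain of C8, was higher than these, at 4.15 ± 0.948 FPKM in PKP2_het against 2.96 ± 0.543 FPKM in WT (SD, n = 4), with a log2 fold change of 0.37 (limma adjusted p = 0.346).

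Soluble regulators included CLU (clusterin) and C4BPA, part of the C4b-binding protein. CLU was at 46.1 ± 22.2 FPKM in PKP2_het against 41.4 ± 26.7 FPKM in WT, and C4BPA at 23.7 ± 10.0 and 28.2 ± 4.49 FPKM (SD, n = 4). The name C4BPA had 2 entries, and the entry with the higher mean FPKM was used, as for CRP and TF. Among membrane regulators CD59, which blocks the assembled pore, was the highest at 68.2 ± 7.82 FPKM in PKP2_het against 67.7 ± 4.32 FPKM in WT. The CD59 log2 fold change was 0.0066 with an interval of -0.26 to 0.28. CD55, which speeds the decay of the C3-splitting enzymes, was at only 0.359 and 0.485 FPKM, and VSIG4, a macrophage receptor for C3b, was at 0.725 and 1.01 FPKM.

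Of 8 receptor genes measured 3 passed the filter. ITGB2, the beta chain of complement receptors 3 and 4, was at 1.57 ± 0.475 FPKM in PKP2_het against 2.57 ± 0.541 FPKM in WT (SD, n = 4), with a log2 fold change of -0.48 (limma adjusted p = 0.213). C1QBP, a mitochondrial protein that also binds C1q, was at 88.8 ± 5.999 and 80.3 ± 4.65 FPKM. CD93, a glycoprotein of endothelial cells, had a log2 fold change of -0.33 (limma adjusted p = 0.669).

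Genes of the cytokine pathways known to induce complement genes were examined in a list of 25, of which 19 were tested. Limma and voom called 0, and 0 had an unadjusted limma p under 0.05. Their median log2 fold change was -0.074, with 5 positive and 14 negative, while 5846 of all 10757 tested genes were negative. Without WT replicate 1 the list had 10 positive and 9 negative, with a median of 0.0052. STAT3, the transcription factor of interleukin 6 signalling, had the smallest p, at a log2 fold change of -0.33 (limma adjusted p = 0.421). IL6ST, its receptor chain, followed at -0.20 (limma adjusted p = 0.550).

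SERPING1 also inhibits proteases of the contact system, and a list of 27 contact, coagulation and serpin genes had 15 tested members. Of these 15, 5 had an unadjusted limma p under 0.05, as did 12.8% of all tested genes. A2M, the broad protease inhibitor alpha-2-macroglobulin, was the 1 gene called, beside 1.86% of all tested genes. It was at 12.7, 17.5, 14.9 and 19.9 FPKM in PKP2_het replicates 1 to 4 and at 32.0, 33.3, 22.4 and 27.7 FPKM in WT replicates 1 to 4. The groups did not overlap, and 4.33% of all tested genes were likewise lower in PKP2_het without overlap. Mean A2M was 56.3% of WT, with a log2 fold change of -0.79 (limma adjusted p = 0.0497), and the call was lost in 13 of 20 alternatives (adjusted p up to 0.244). A2M lies on chromosome 5 from 62406928 to 62483690, before C1RL and C1R. PLAU (urokinase) had the next smallest p, at 3.40 ± 0.623 FPKM in PKP2_het against 2.30 ± 0.432 FPKM in WT and a limma adjusted p of 0.214.

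The gene next to C1R, C1RL, was named after its values were seen. It encodes a C1r-like protease and spans 63623398 to 63640065 on chromosome 5, ending 4.03 kb before C1R on the same strand. C1RL was at 0.0125 to 0.0650 FPKM in PKP2_het, on 12 fragments over the 4 libraries, and at 0.211 to 0.498 FPKM in WT, on 109 fragments. The groups did not overlap at these low levels. It was too low for the main filter, and with no filter its limma adjusted p was 0.0401 and its voom adjusted p 0.0129. Of the 22206 genes fitted with no filter, limma called 244 and voom 363. C1RL was below WT and C1S above WT in every PKP2_het library, while C1R, which lies between them, overlapped. For these neighbouring genes, ancestry and knockout cannot be told apart, since litters are not labelled.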

How the data were processed

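RNA of 8 libraries was compared; titles gave the group and replicate number of each. The authors deposited FPKM values for 30550 genes. Alignment used HISAT2 2.0.5, per the submitters' processing notes, and the counting program, annotation, strand setting and scaling are not stated there or in the labels. The start and end of 30335 genes, all 9 complement genes included, equal those in the RefSeq table of Sscrofa11.1. Multiplied by gene length, the FPKM values of a library step by a fixed amount, and all of them (100%) fell within 0.01 of a whole fragment, so fragments per gene were recovered for depth and intervals. That step times the library's median-of-ratios size factor was equal in all 8 libraries. Such a factor is the median, over genes, of a library's fragments relative to their geometric mean over libraries. The deposited values thus carry median-of-ratios scaling.

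The main comparison took log2(FPKM + 1) of the 10757 genes that reached 1 FPKM in 4 or more libraries. It used limma 3.58.1 (R 4.3.3) with a mean-variance trend, two-sided tests and Benjamini-Hochberg adjustment over all tested genes at 0.05. The pseudocount understates changes of low genes. Alternatives were pseudocounts of 0.5 and 0.1, other filters and scalings, library quality weights, robust variances, a replicate term, leaving out each library, and voom on the recovered fragments. The fit was also run on simulated data with the same dispersion for every gene and no outlying library. That run cannot show how the fit performs on these libraries, where the spread differs by gene and PKP2_het replicate 3 stood apart. The 9 genes and all lists were chosen with earlier results of these data known. Named by rule were the 9 genes, the 2 highest other complement genes of each role, called genes and the 2 smallest p-values of other lists, the highest cell type markers, and the 3 genes most like each tested one. 1 tested complement gene is counted with its list but not reported here by name or value. Ratios to C1R, C1S, SERPING1 and fibroblast markers were also taken for all tested genes. Other names, such as C1RL, FCN1, BDKRB2, S100A12, PTPRC, C8G, ITGB2 and the terminal components, were chosen after their values were seen.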

Additional observations from a re-analysis of the deposited data

How the results depend on the processing

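The number of called genes among the 6 tested ones was 0 in 18 of 20 alternatives, and 1 (C1S) with library quality weights and without PKP2_het replicates 3 and 4. C1S stayed positive in all 20, from 0.45 with equal FPKM sums to 1.10 without those replicates. C1R, C7 and SERPING1 were positive and CD46 negative in all 20. Without PKP2_het replicate 3 the log2 fold change was 0.44 for C1R, 0.92 for C7, 0.44 for SERPING1 and -0.12 for CD46. Their limma adjusted p-values were then 0.390 to 0.570. C3 turned positive in 4, at 0.088 with library quality weights, 0.077 without PKP2_het replicate 3, 0.020 without WT replicate 4 and 0.33 without PKP2_het replicates 3 and 4, and reached -0.44 without PKP2_het replicate 2. Among other complement genes the count went from 0 to 1 with no filter and with voom and no filter (FCN1), and with library quality weights (CFD). The contact and serpin count went from 1 to 0 with a pseudocount of 0.1, no filter, a mean of at least 5 FPKM, equal FPKM sums, voom, and without PKP2_het replicates 3 and 4. It was 0 to 1 when single libraries were left out. PKP2 passed at -0.57 with library quality weights. Same-numbered libraries did not deviate together (correlations from -0.39 to 0.20, and 2 of 8 libraries closest to their own number), so numbers were not taken as pairs. With a replicate block the contact and serpin count was 0 and the C1S adjusted p 0.425. Over all genes 200 were called, 67 with a mean of at least 5 FPKM, 92 with equal FPKM sums, 105 with the replicate block, 363 with voom and no filter, 659 with library quality weights, and 115 to 314 when 1 library was left out. The cause of these changes was not tested. Planned edgeR and DESeq2 fits on recovered fragments were made once and not kept, whereas the voom fits on these fragments were kept. Neither edgeR nor DESeq2 called any of the 6 tested genes in that run. DESeq2 called CFD and PKP2, which the main test did not, and edgeR with no filter called FCN1. These edgeR and DESeq2 calls were not rechecked. C2, CFB and CFI rest on 15 to 148 fragments per library.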

Other observations

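FCN1, which encodes a ficolin of the lectin branch made by monocytes and neutrophils, was lower in PKP2_het in every library. It lay below the main filter, and is described here because it was called with no filter, a choice made after its values were seen. It was at 0.0153 to 0.0620 FPKM in PKP2_het, on 11 fragments, and at 0.256 to 0.503 FPKM in WT, on 107 fragments. With no filter its limma adjusted p was 0.0242 and its voom adjusted p 0.00860. Of the 22206 genes fitted with no filter, limma called 244 and voom 363. Among low neutrophil markers fitted with no filter, 5 of 6 were negative and 1, ELANE, was positive, and limma called S100A12. Of 11 lymphocyte markers 10 were negative and 1 positive, with 0 called. S100A12 had 0 fragments in the 4 PKP2_het libraries and 12 in the WT libraries, and S100A9 had 4 and 25. PTPRC, the common leukocyte antigen, was at 0.608 to 1.19 FPKM in PKP2_het against 1.23 to 1.76 FPKM in WT, and its limma adjusted p was 0.0986. CD4 was at 1.88 FPKM and 1.92 FPKM in these groups, and NKG7 at 1.68 and 1.79 FPKM. The part of leukocyte content in the FCN1 difference was not tested.

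BDKRB2, which encodes the receptor for bradykinin, the peptide whose release SERPING1 limits, was higher in every PKP2_het library. It was at 0.775 ± 0.258 FPKM in PKP2_het against 0.315 ± 0.106 FPKM in WT (SD, n = 4). It also lay below the main filter and was chosen after its values were seen. With no filter its limma adjusted p was 0.145 and its voom adjusted p 0.108. Among the tested genes 4.86% were higher in every PKP2_het library, a share that was not counted for genes below the filter.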
